A study of Ovis aries and Bos taurus with 15 samples.

Results

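Vascular endothelial growth factors are secreted proteins that drive the growth, survival and permeability of blood and lymph vessels. VEGFA signals mainly through the receptor tyrosine kinase KDR, while FLT1 binds VEGFA tightly but signals weakly and is also the receptor for VEGFB and PGF. VEGFC is the ligand of FLT4, the receptor of lymphatic endothelium, and NRP1 and NRP2 are coreceptors that also bind class 3 semaphorins. The 9 genes described here are the ligands VEGFA, VEGFB, VEGFC and PGF, the receptors KDR, FLT1 and FLT4, and the coreceptors NRP1 and NRP2. They were chosen by gene symbol, taking every probe set to which the platform annotation gives exactly 1 symbol that is one of these 9. This gave 15 probe sets of the 24016 tested, and 9 of the 9155 genes named on the array. VEGFA, KDR, FLT4 and NRP2 had 2 probe sets each, FLT1 had 3, and VEGFB, VEGFC, PGF and NRP1 had 1 each.

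Total RNA was hybridised to 15 arrays of bovine probe sets, 1 per sample, in 3 groups of 5. The ovine vehicle group was sheep cells labelled PAEC, the pulmonary endothelial cells of the study's title, kept with DMSO. The ovine GW9662 group was the same kind of cell given GW9662, an irreversible antagonist of the nuclear receptor PPARγ, at a dose of 5 µM, and both ovine groups were kept for 24 h. The bovine control group was cattle cells labelled BAEC, for which the labels give neither a treatment nor a vehicle, and all 3 groups were grown in DMEM with fetal bovine serum. The labels do not say that the 5 replicates of a group were separate cultures or animals, so the p-values measure only the spread between these samples, which may be technical. Sheep RNA was read with cattle probes, so a low ovine value can come from the match of probe to transcript as well as from the level of the transcript.

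Values are log2 expression as deposited, and ran from 0.899 to 14.07 over all probe sets. Array medians ran from 3.18 to 3.27. The number of arrays sets how precise each value can be. Ovine vehicle replicate 1 stood apart, with an upper quartile of 6.56 against 6.76 to 6.85 on the other arrays. Of 11 endothelial marker genes measured, 9 had a mean of at least 6 in every group, while VWF was under 3 in all groups and CLDN5 was under 3 in both ovine groups. The 4 lymphatic and 5 epithelial markers measured were all under 3, as were 5 of 7 smooth muscle markers and 4 of 6 fibroblast markers. The brighter exceptions included TAGLN, COL1A2 and COL3A1 in all groups, and CD14 in the ovine groups alone.

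Of the 15 probe sets, 7 had a mean over the 15 arrays of at least 3. They were the only probe sets of VEGFB, VEGFC, PGF and NRP1 and the brighter probe sets of VEGFA, KDR and NRP2. The other 8 had means under 3, a range that held 45.9% of all probe sets tested. They included all 3 probe sets of FLT1 and both of FLT4. The deposited values hold no measure of signal over background, so a value under 3 cannot be told from no expression. Levels of different probe sets are not on a common scale, so each group difference is taken within a probe set. The cutoffs, ranks and summed markers do reach across probe sets, and each sum mostly follows its brightest members.

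**Figure D1:**
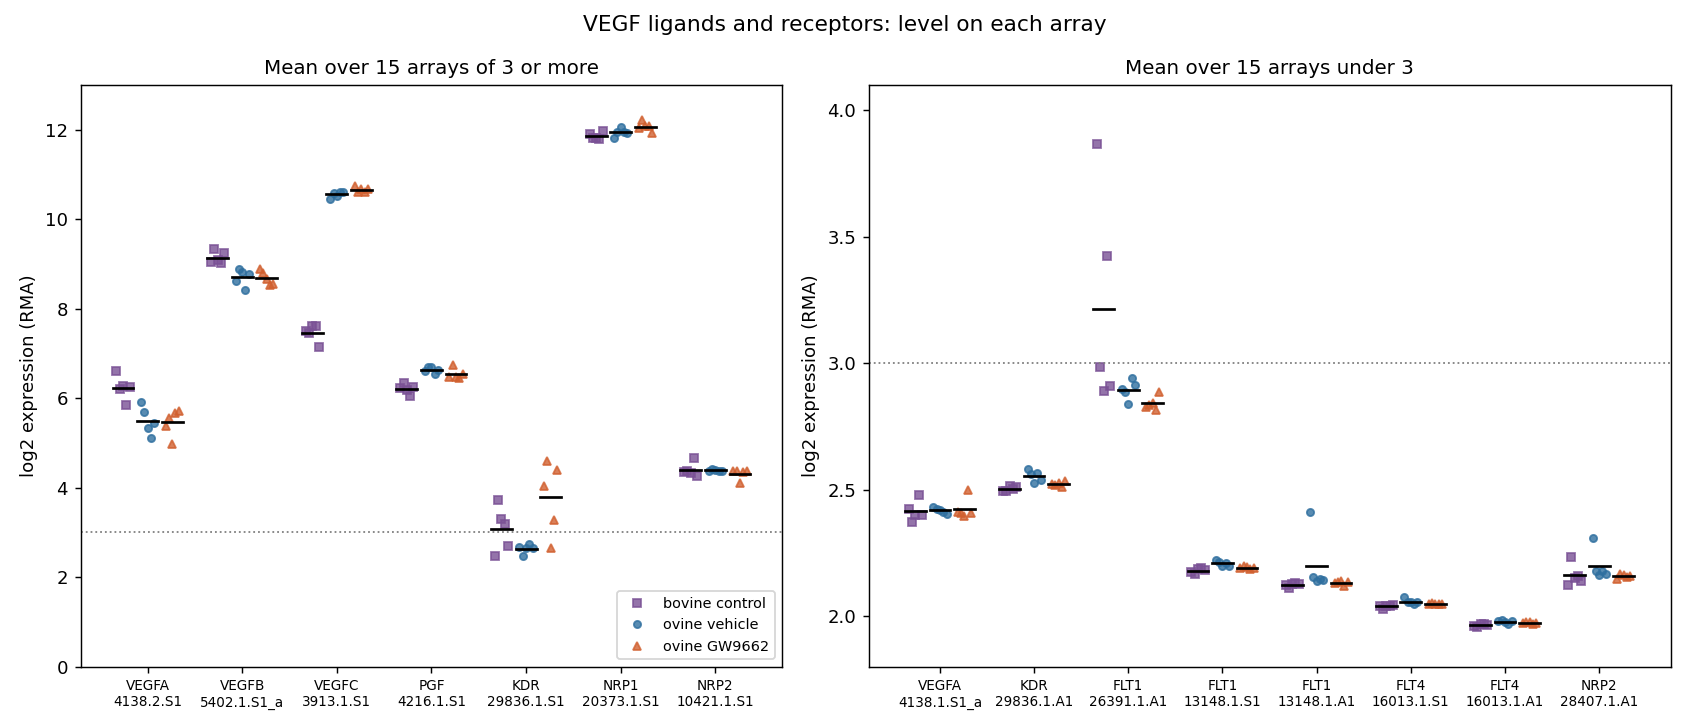
Log2 expression (RMA) of the 15 probe sets of the VEGF ligands and receptors on each array, with 5 arrays per group and a bar at the group mean; the dotted line marks 3, and the right panel has its own axis from 1.8. VEGFC lies near 7.46 in the bovine control and above 10.4 on every ovine array, and KDR is spread from 2.65 to 4.59 among the GW9662 arrays.

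The first comparison asked whether the expression of the family differed between ovine PAEC given GW9662 and those given vehicle. None of the 15 probe sets passed the threshold (limma, adjusted p under 0.05), where 0.183% of all probe sets tested passed, 0.146% higher and 0.0375% lower. Of the 7 with a mean of at least 3, again 0 passed, against 0.331% of such probe sets. At an unadjusted p under 0.05 there were 4, against 21.4% of all probe sets tested. They were the brighter probe set of KDR, VEGFC, the dimmer probe set of KDR and the brightest probe set of FLT1. The point estimates were largest for KDR, at 1.15 on the log2 scale, and lay between -0.10 and 0.13 for every other probe set. The median difference over the 15 was -0.02, and over all probe sets tested it was also -0.02. Groups did not overlap for 4 of the 15 probe sets (26.7%), against 14.6% of all probe sets tested. VEGFC was the 1 higher in the GW9662 group, against 1.93% of all probe sets. The 3 lower, against 12.7%, were the brighter probe set of NRP2 and the dimmer pair of FLT1. The log2 of the summed endothelial markers also separated the groups, running from 13.35 to 13.50 with GW9662 and from 13.53 to 13.64 with vehicle, and its part in these differences was not tested.

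**Figure D2:**
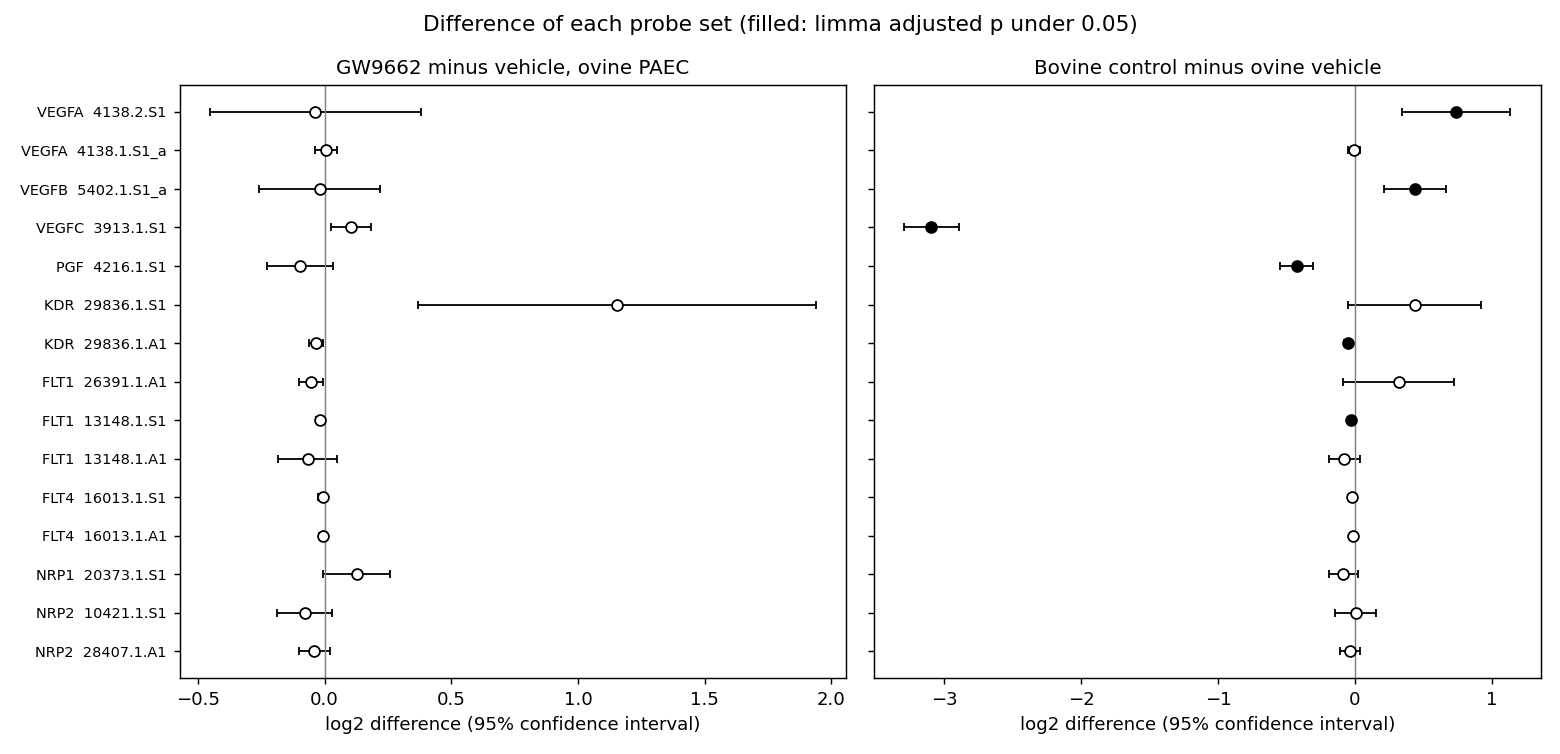
Log2 difference of each probe set with its 95% confidence interval, for GW9662 minus vehicle on the left and bovine control minus ovine vehicle on the right, 5 arrays per group; filled points have a limma adjusted p under 0.05. On the left no point is filled and KDR stands at 1.15 with the widest interval, and on the right VEGFC stands at -3.09.

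VEGFA, the main ligand of KDR, had its brighter probe set (Bt.4138.2.S1_at) at 5.90, 5.70, 5.33, 5.10 and 5.44 on vehicle replicates 1 to 5. On GW9662 replicates 1 to 5 it stood at 5.38, 5.56, 4.97, 5.68 and 5.71. The groups overlapped along most of their range, and the lowest GW9662 array, replicate 3, lay below every vehicle array. The difference was -0.04 (SE 0.18, 95% confidence interval -0.45 to 0.38, limma adjusted p = 0.899). Its sign was not stable, as the point estimate was 0.19 with RNA quality as a covariate and 0.02 with array weights. The SD among replicates was 0.31 in the vehicle group and 0.30 in the GW9662 group. The interval gives the differences compatible with these values and is not a limit of detection. The dimmer probe set of VEGFA (Bt.4138.1.S1_a_at) stayed between 2.37 and 2.50 on all 15 arrays.

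VEGFB, a ligand of FLT1 linked to fatty acid uptake and cell survival, read 8.63, 8.89, 8.83, 8.41 and 8.77 in the vehicle group. It read 8.89, 8.80, 8.66, 8.52 and 8.56 in the GW9662 group. The values interleaved, with a difference of -0.02 (SE 0.11, 95% confidence interval -0.26 to 0.22, limma adjusted p = 0.904), or -0.19 with RNA quality as a covariate and 0.02 with each array centred. PGF, placental growth factor, measured 6.60, 6.70, 6.70, 6.54 and 6.64 on vehicle arrays. With GW9662 it measured 6.48, 6.74, 6.48, 6.45 and 6.55. Of the GW9662 arrays, replicates 1, 3 and 4 lay below every vehicle array and replicate 2 lay above them all. The difference was -0.10 (SE 0.058, 95% confidence interval -0.23 to 0.03, limma adjusted p = 0.300). It was -0.23 with RNA quality as a covariate and -0.05 with each array centred on its median.

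VEGFC, the lymphangiogenic ligand of FLT4, varied little between replicates in ovine cells. Vehicle arrays read 10.46, 10.59, 10.53, 10.60 and 10.60, and GW9662 arrays read 10.73, 10.62, 10.66, 10.61 and 10.67. Every GW9662 array was above every vehicle array, although the closest pair were 10.61 and 10.60. The difference was 0.10 (SE 0.034, 95% confidence interval 0.03 to 0.18, limma adjusted p = 0.217), a fold of 1.08. With RNA quality as a covariate it was 0.06 (adjusted p = 1).

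KDR, the receptor that carries most VEGFA signalling in blood vessel endothelium, showed the widest spread of the family in the GW9662 and bovine groups, though not in the vehicle group. Its brighter probe set (Bt.29836.1.S1_at) read 2.67, 2.47, 2.65, 2.74 and 2.66 on vehicle arrays, all under 3. On GW9662 replicates 1 to 5 it read 4.04, 4.59, 2.65, 3.27 and 4.40. Thus 4 of 5 GW9662 arrays lay above every vehicle array, while replicate 3 lay within the vehicle range. The group means were 3.79 ± 0.81 (SD, n = 5) with GW9662 and 2.64 ± 0.10 (SD, n = 5) with vehicle. The difference was 1.15 (SE 0.35, 95% confidence interval 0.37 to 1.94), a fold of 2.22, with an unadjusted p of 0.00903 and a limma adjusted p of 0.217. Only 8 probe sets of 24016 (0.0333%), KDR included, had a point estimate as high, and only 13 (0.0541%) had as large an SD among the GW9662 arrays. Over all the alternative settings its adjusted p ran from 0.0879 to 1. Without GW9662 replicate 3 the difference was 1.44, with an adjusted p of 0.0879.

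RNA quality differed between the same groups. The 3′ minus 5′ difference of 6 control transcripts, which grows as the 5′ ends are lost, averaged 0.956 ± 0.074 (SD, n = 5) on GW9662 arrays and 1.18 ± 0.085 (SD, n = 5) on vehicle arrays. The groups were fully separate (exact permutation test, two-sided, p = 0.00794, the lowest possible with 5 arrays on each side). On GW9662 replicates 1 to 5 the quality measure was 0.912, 0.853, 1.04, 0.987 and 0.984. The array with the lowest KDR, replicate 3, thus had the highest value of its group, and the array with the highest KDR, replicate 2, had the lowest. Replicates 4 and 5, nearly level on the measure, had KDR at 3.27 and 4.40. On bovine replicates 1 to 5 the measure was 0.911, 0.856, 0.942, 0.854 and 0.843. KDR on the same arrays was 2.47, 3.72, 3.30, 3.19 and 2.70. With this measure as a covariate the KDR difference was 0.28 (SE 0.58, limma adjusted p = 1). Because the measure separated the 2 ovine groups, its part in the difference cannot be told apart from that of GW9662. The dimmer probe set of KDR (Bt.29836.1.A1_at) stayed under 3 on all arrays and differed by -0.03 (limma adjusted p = 0.217), or 0.01 with each array centred on its median.

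**Figure D3:**
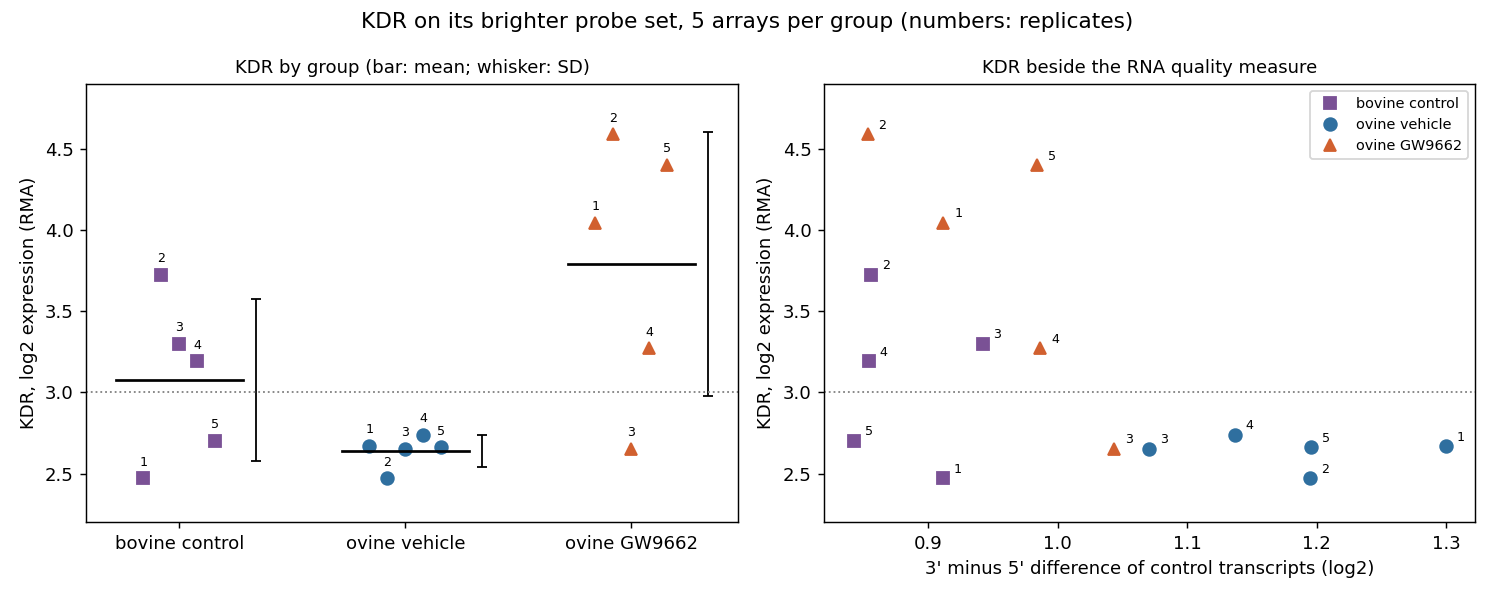
Log2 expression (RMA) of KDR on its brighter probe set, by group on the left (bar, mean; whisker, SD; numbers, replicates; 5 arrays per group) and against the 3′ minus 5′ difference of control transcripts (log2) on the right; the dotted line marks 3. All vehicle arrays lie under 3 with the higher quality differences, 1.07 to 1.30. GW9662 replicate 3 lies within their KDR range at 2.65, but below their quality differences at 1.04.

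FLT1, the high-affinity receptor for VEGFA, VEGFB and PGF, was dim in ovine cells on all 3 probe sets. On its brightest (Bt.26391.1.A1_at) it ran from 2.84 to 2.94 in the vehicle group and from 2.81 to 2.88 with GW9662, with a difference of -0.05 (SE 0.021, limma adjusted p = 0.218). The other 2 probe sets of FLT1 differed by -0.02 (Bt.13148.1.S1_at, adjusted p = 0.259, or 0.03 with each array centred) and -0.07 (Bt.13148.1.A1_at, adjusted p = 0.391). FLT4 lay between 1.96 and 2.07 on both probe sets and all 15 arrays. Its differences with GW9662 were -0.01 on each probe set (limma adjusted p = 0.493 and 0.615), and turned positive with each array centred, at 0.03 and 0.04.

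NRP1, a coreceptor that binds VEGFA and strengthens its signal through KDR, read 11.82, 11.95, 12.05, 11.95 and 11.93 on vehicle arrays. With GW9662 it read 12.03, 12.22, 12.08, 12.09 and 11.92. In the GW9662 group 3 arrays lay above every vehicle array, and replicates 1 and 5 lay within the vehicle range. The difference was 0.13 (SE 0.059, 95% confidence interval -0.01 to 0.26, limma adjusted p = 0.242), and with RNA quality as a covariate it was -0.07. NRP2, the coreceptor that pairs with FLT4 for VEGFC, read 4.38, 4.41, 4.39, 4.38 and 4.38 with vehicle on its brighter probe set (Bt.10421.1.S1_at). With GW9662 it read 4.36, 4.36, 4.11, 4.34 and 4.36. All GW9662 arrays were below all vehicle arrays, by a small margin except in replicate 3. The difference was -0.08 (SE 0.048, 95% confidence interval -0.19 to 0.03, limma adjusted p = 0.303), or -0.18 with RNA quality as a covariate. The dimmer probe set of NRP2 differed by -0.04 (limma adjusted p = 0.334).

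The second comparison set bovine BAEC against ovine PAEC with vehicle, and so shares its vehicle arrays with the first. Species, cell source, the match of sheep RNA to cattle probes and the vehicle differed together in this comparison, and their parts cannot be told apart. VEGFC was lower in the bovine cells by 3.09 on the log2 scale, a fold of 8.54, and PGF was lower by a fold of 1.34. VEGFA and VEGFB were higher, by folds of 1.67 and 1.35. No receptor or coreceptor probe set with a mean of at least 3 passed the threshold. Over all 15 probe sets, 6 passed (40.0%), against 45.2% of all probe sets tested, 2 of them higher (15.6% of all probe sets) and 4 lower (29.6%). Among the 7 with a mean of at least 3 over the arrays compared, 4 passed, against 52.1%. Here FLT1 on its brightest probe set took the place of KDR. Groups did not overlap for 8 of 15 (53.3%), against 53.0% of all probe sets, with 1 higher (12.5%) and 7 lower (40.5%), so the family's shares stood near those of the whole array. Summed markers of other cell types differed between these groups too, each sum resting on few genes. The log2 of the summed smooth muscle markers ran from 9.04 to 9.32 in bovine and from 7.43 to 7.77 in vehicle arrays, that of the fibroblast markers from 11.86 to 11.92 and from 11.30 to 11.48, and that of the leukocyte markers from 5.00 to 5.07 and from 6.87 to 7.17. Among leukocyte markers CD14 had means of 2.27 in bovine and 6.69 in vehicle arrays, and the others measured had means under 3. COL1A2 was higher in bovine cells by 0.91 while COL3A1 differed by -0.03, the other fibroblast markers having means under 3. TAGLN and SMTN were higher by 1.83 and 1.27, the other smooth muscle markers having means under 3. The part of these markers in the differences was not tested.

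For VEGFC the bovine arrays read 7.49, 7.45, 7.62, 7.61 and 7.13. Even the highest of them lay far below the lowest ovine array, at 10.46. The group means were 7.46 ± 0.20 (SD, n = 5) in the bovine control and 10.55 ± 0.063 (SD, n = 5) in the ovine vehicle. The difference was -3.09 (SE 0.088, 95% confidence interval -3.29 to -2.90, limma adjusted p = 1.32e-08). Only 72 probe sets (0.300%), VEGFC included, were lower in bovine cells by as much. The call held in every alternative run, where the difference stayed between -3.13 and -3.01. PGF, at 6.23, 6.34, 6.19, 6.05 and 6.25 on bovine arrays, was below every vehicle array. Its difference was -0.42 (SE 0.053, limma adjusted p = 0.000279), and with RNA quality as a covariate the call was lost at -0.48 (adjusted p = 0.117).

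The bovine values of VEGFA on its brighter probe set were 6.61, 6.19, 6.28, 5.85 and 6.25. Bovine replicate 4 fell just below vehicle replicate 1, so the groups overlapped by that pair alone. The means were 6.24 ± 0.27 (SD, n = 5) and 5.50 ± 0.31 (SD, n = 5), a difference of 0.74 (SE 0.18, 95% confidence interval 0.34 to 1.14, limma adjusted p = 0.0113). With RNA quality as a covariate the VEGFA difference was 1.65 (adjusted p = 0.031). VEGFB read 9.03, 9.33, 9.09, 9.02 and 9.25 on bovine arrays, above every vehicle array. Its difference was 0.44 (SE 0.10, 95% confidence interval 0.21 to 0.66, limma adjusted p = 0.00936), and the covariate took it to 0.29 with the call lost (adjusted p = 0.758). The 3′ minus 5′ difference, which grows as 5′ ends are lost, was lower in the bovine group, at 0.881 ± 0.043 (SD, n = 5). It was fully separate from the vehicle group (exact permutation test, two-sided, p = 0.00794, the lowest possible). Its control probe sets are bovine, so with sheep RNA the measure also depends on probe match, which was not tested. The part of the measure in these differences cannot be told apart from that of the groups.

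Among the receptors, KDR on its brighter probe set read 2.47, 3.72, 3.30, 3.19 and 2.70 in bovine cells. Replicates 2, 3 and 4 lay above every vehicle array, and replicate 1 was level with the lowest. The mean was 3.08 ± 0.50 (SD, n = 5), and the difference of 0.44 did not pass (SE 0.21, 95% confidence interval -0.05 to 0.92, limma adjusted p = 0.115). Without bovine replicate 1 the difference was 0.59 and passed (adjusted p = 0.0416). The SD of KDR among the bovine arrays was exceeded or equalled by 73 probe sets (0.304%), its own included, so KDR varied widely among replicates in this group as well. The dimmer KDR probe set passed at -0.05 (adjusted p = 0.0113), with all arrays of both groups under 3, and lost the call with each array centred (-0.02, adjusted p = 0.305) or with a second quantile normalisation (adjusted p = 0.151).

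FLT1 on its brightest probe set read 3.87, 2.99, 2.89, 3.42 and 2.91 in bovine cells, so replicates 1 and 4 rose above the dim range that held all ovine arrays. The difference was 0.32 (SE 0.18, 95% confidence interval -0.09 to 0.73, limma adjusted p = 0.161), and 0.16 without bovine replicate 1. KDR was at its lowest of the bovine group on replicate 1, where FLT1 was at its highest. A second FLT1 probe set (Bt.13148.1.S1_at) passed at -0.03 (adjusted p = 0.0421), a difference between levels near 2.2 that turned to 0.0060 with each array centred. FLT4 differed by -0.02 on both probe sets (limma adjusted p = 0.105 and 0.154), or 0.02 with each array centred.

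For NRP1 the bovine arrays read 11.89, 11.81, 11.81, 11.80 and 11.96, overlapping the vehicle arrays. The difference was -0.09 (SE 0.047, 95% confidence interval -0.19 to 0.02, limma adjusted p = 0.151). NRP2 read 4.36, 4.37, 4.32, 4.66 and 4.25 on its brighter probe set, with a difference of 0.01 (SE 0.067, 95% confidence interval -0.15 to 0.16, limma adjusted p = 0.953). With RNA quality as a covariate the NRP1 difference was -0.33 (adjusted p = 0.0799) and that of NRP2 was -0.06.

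Across the 3 groups the order of means differed between members. VEGFC was in the order GW9662, vehicle, bovine, with only the step from vehicle to bovine passing. VEGFA and VEGFB were in the order bovine, vehicle, GW9662, and only the step from bovine to vehicle passed. PGF ran from vehicle through GW9662 to bovine, and KDR from GW9662 through bovine to vehicle. For PGF and KDR the step between GW9662 and bovine was not tested. The difference of PGF between vehicle and bovine passed and that between vehicle and GW9662 did not, and neither step tested for KDR passed. NRP1 was in the order GW9662, vehicle, bovine with no step passing.

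Other genes of the pathway were taken from 5 lists that hold 68 genes, of which 46 had a named probe set. The lists cover signalling downstream of the receptors, oxygen sensing upstream of VEGFA, and class 3 semaphorins and plexins. The others hold proteins that bind or release VEGF, together with the ligand VEGFD, and endothelial genes that VEGF induces. With GW9662, 0 of the 46 passed and 9 had an unadjusted p under 0.05 in limma, against 21.4% of all probe sets tested. The median difference was -0.01, against -0.02 over all probe sets. EPAS1, the endothelial hypoxia-inducible factor, was at 10.35 ± 0.033 (SD, n = 5) with GW9662 and 10.00 ± 0.16 (SD, n = 5) with vehicle, with no overlap. Its difference was 0.36 (SE 0.068, limma adjusted p = 0.109). It passed without vehicle replicate 1, at 0.29 (adjusted p = 0.0406), and in a fit of all 15 arrays (adjusted p = 0.0176), and was 0.25 with RNA quality as a covariate (adjusted p = 0.959). EGLN3, a prolyl hydroxylase that marks hypoxia-inducible factors for destruction, was at 8.24 ± 0.085 and 7.90 ± 0.22 (SD, n = 5 each), also with no overlap. Its difference of 0.34 (SE 0.10, limma adjusted p = 0.217) became -0.0059 with the covariate.

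With GW9662 the 6 oxygen-sensing genes measured had a median difference of 0.09, against 0.03 over all probe sets with a mean of at least 3. The list of proteins that bind or release VEGF also holds VEGFD, itself a VEGF ligand, with means of 2.62 with GW9662 and 2.78 with vehicle. Its 9 genes, 3 of them under 3 in both groups, had a median of -0.10. They include THBS1, thrombospondin, a matrix inhibitor of angiogenesis, and SPARC, a matrix protein that binds VEGF, each at -0.10 (limma adjusted p = 0.223 and 0.228), with SPARC at -0.17 under the RNA quality covariate. The 18 signalling genes had a median of 0.01, and MAPK3, an ERK kinase, stood at -0.22 (limma adjusted p = 0.218), or -0.08 with the covariate. The 9 VEGF-induced genes had a median of -0.01 and the 4 semaphorins and plexins one of -0.02. PRKCB, SEMA3B, PLXNA4, F3 and PTGS2, the remaining genes of smallest p in these lists, were under 3 in both groups.

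Between the bovine and ovine controls 26 of the 46 pathway genes passed (56.5%), against 45.2% of all probe sets tested and 52.1% of those with a mean of at least 3. Of them 14 were higher and 12 lower in bovine cells, where 15.6% and 29.6% of all probe sets were. Those shares include many dim probe sets, while only 14 of the 46 genes were under 3 in both groups. With dim probe sets left out of the fit, 3708 of 13038 were higher and 2878 lower. ADAMTS1, a protease that binds VEGFA and inhibits angiogenesis, was at 6.89 ± 0.15 and 4.34 ± 0.097 (SD, n = 5 each), a difference of 2.55 (SE 0.078, limma adjusted p = 2.15e-08). Higher too were DLL4, the Notch ligand of tip cells, by 1.63, SOX18, a transcription factor of endothelial differentiation, by 1.40, and PTPRB, a phosphatase that restrains KDR and TEK, by 0.85. EGLN3 was lower by a fold of 5.01, at 5.58 ± 0.19 against 7.90 ± 0.22 (SD, n = 5 each, limma adjusted p = 9.61e-07). RCAN1, a calcineurin inhibitor induced by VEGF, differed by -1.07, THBS1 by -0.58 and EPAS1 by -0.44. All 8 lay outside the range of the vehicle arrays. EPAS1 lost its call with the covariate (adjusted p = 0.0944), and SOX18 was then higher by 0.81. By list, beside those same shares of all probe sets and counts without dim ones, 8 signalling genes were higher and 3 lower of 18, 0 and 2 of 6 for oxygen sensing, 1 and 1 of 4 for semaphorins and plexins, 2 and 4 of 9 for VEGF binding, and 3 and 2 of 9 for VEGF-induced genes.

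**Figure D4:**
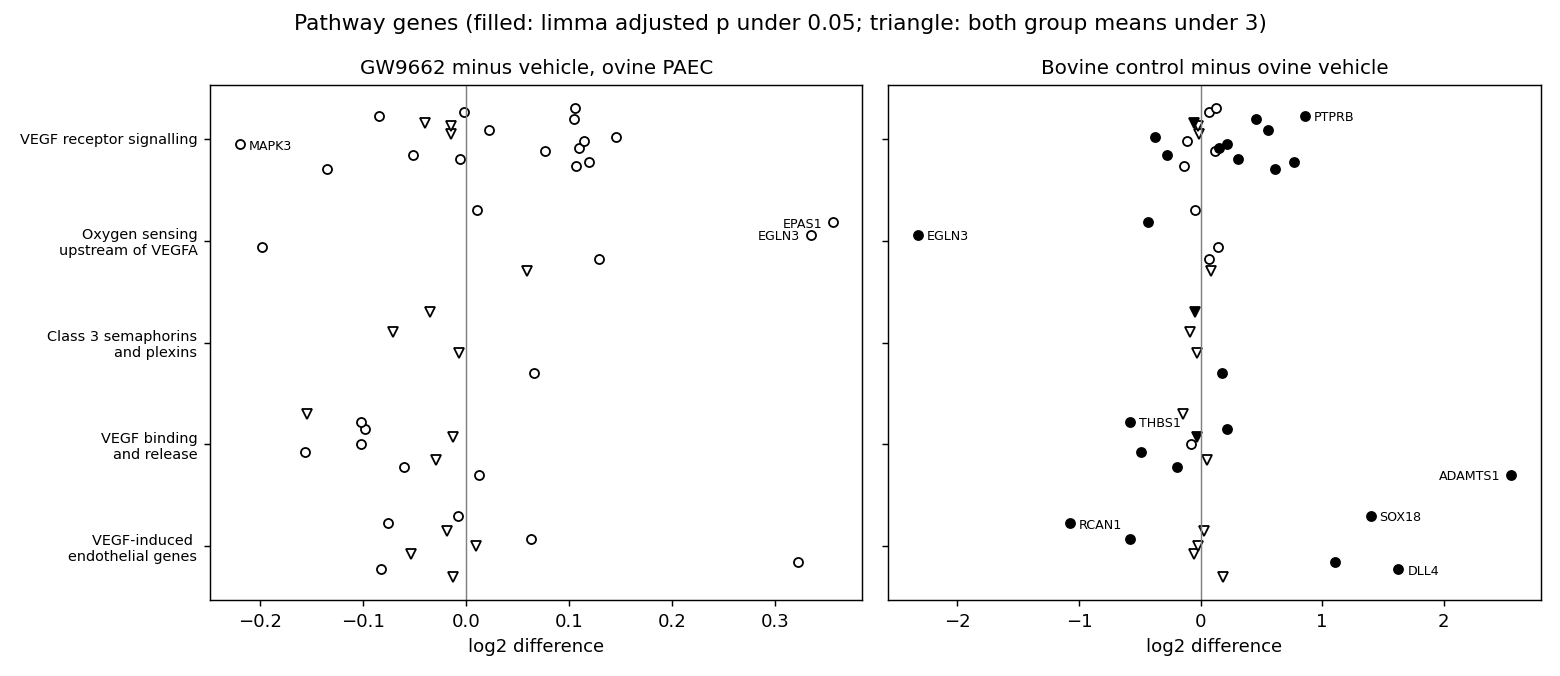
Log2 difference of each of the 46 pathway genes by list, for GW9662 minus vehicle on the left and bovine control minus ovine vehicle on the right; filled marks have a limma adjusted p under 0.05, triangles have both group means under 3, and the names are those of genes described in the text. No mark is filled on the left, where EPAS1 and EGLN3 lie farthest right at 0.36 and 0.34, and 26 are filled on the right, from EGLN3 at -2.33 to ADAMTS1 at 2.55.

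Other named genes were ranked by how closely their values followed a member over the 10 ovine arrays, among probe sets with a mean of at least 3. For KDR these were CS, citrate synthase (Pearson r = 0.982), HSPH1, a heat shock chaperone (r = 0.979), and EIF2AK2, a kinase activated by double-stranded RNA (r = 0.964). HSPH1 read 6.84, 7.34, 6.29, 6.59 and 7.12 on GW9662 replicates 1 to 5, against at most 6.26 with vehicle. The high and low GW9662 arrays were thus those of KDR, with replicate 2 highest and replicate 3 lowest. CS read 5.31, 5.35, 4.80, 5.02 and 5.37 with GW9662, against 4.73 to 4.84 with vehicle, and was lowest on replicate 3 too. None of the 3 passed the threshold, with differences of 0.38 for CS, 0.72 for HSPH1 and 0.52 for EIF2AK2 (limma adjusted p = 0.216, 0.180 and 0.217).

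For VEGFA the closest were TIAL1 (r = 0.882), SFPQ (r = 0.865) and MLX (r = 0.854). NRP1 was followed most closely by HCFC2 (r = 0.948), ACKR4 (r = 0.937) and TUT7 (r = 0.937). FLT1 on its brightest probe set was under 3 on every ovine array, a range that cannot be told from no expression. Its values there were followed most closely by RALGPS2 (r = 0.940), TSPAN14 (r = 0.923) and FGFR2 (r = 0.923). These correlations are the highest of 7950 probe sets, or 7951 for FLT1, and describe arrays that share groups, processing and RNA quality.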

How the data were processed

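The authors deposited log2 expression values from RMA (no version is named), per the submitters' processing notes. RMA corrects background, quantile-normalises arrays and summarises each probe set. The deposited arrays still differed somewhat in scale, with upper quartiles from 6.56 to 6.85. The 112 control probe sets served for the 3′ minus 5′ measure alone. Of the 24016 others, 13292 had 1 gene symbol, 86 several and 10638 none. The 10 arrays of each comparison were fitted in limma 3.58.1 (lmFit, eBayes; R 4.3.3), p-values were adjusted by Benjamini-Hochberg across the whole array, and the threshold was 0.05. The brightest probe set stood for a pathway gene. The fits were tested on simulated data. The members, the pathway and marker lists and the rules were chosen with earlier results of these data known. Besides all members, the text names up to 4 pathway genes per direction of smallest p among those passing, or up to 2 per list where none passed, and the 3 genes most correlated with VEGFA, KDR, FLT1 and NRP1. Alternatives were array centring, a second quantile normalisation, leaving out dim probe sets, array weights, a trended and robust variance, RNA quality as a covariate, the 15 arrays in a single fit, a replicate block, leaving out each array and averaging the probe sets of a pathway gene. No 2 arrays were identical, with correlations within groups from 0.9938 to 0.9985. Sequences and genome positions are not given here.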

Additional observations from a re-analysis of the deposited data

Results flagged for a closer look

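Single arrays stood far from the other 4 of their group (Dixon's ratio above 0.71) in 8 of 93 groups examined, where chance gives about 1 in 20. Of these, 6 fell among the 45 groups of the VEGF ligands and receptors. NRP2 on its brighter probe set read 4.66 on bovine replicate 4, with the others at 4.25 to 4.37, and 4.11 on GW9662 replicate 3, with the others at 4.34 to 4.36. GW9662 replicate 3 was also the array with the lowest KDR of its group. NRP2 on its dimmer probe set read 2.31 on vehicle replicate 1, with the others at 2.16 to 2.18. FLT1 (Bt.13148.1.A1_at) read 2.41 on the same vehicle array, with the others at 2.14 to 2.15, and 2.12 on GW9662 replicate 4, with the others at 2.13 to 2.14. VEGFA on its dimmer probe set read 2.50 on GW9662 replicate 4, with the others at 2.40 to 2.41. Among the pathway genes, ADAMTS1, the protease that binds VEGFA, read 7.15 on bovine replicate 1, with the others at 6.76 to 6.86, and PLXNA4, a semaphorin receptor, read 2.13 on GW9662 replicate 5, with the others at 2.10 to 2.11.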

How the results depend on the processing

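With GW9662, 0 of the 15 VEGF probe sets passed under every alternative run. VEGFC, PGF and the brightest probe sets of KDR, FLT1 and NRP2 kept their direction in all of them. The count of bovine against ovine calls among the 15 stayed between 4 and 8, except with RNA quality as a covariate, where VEGFA and VEGFC made up the 2 left of 6. In that fit 7 of 26 pathway genes passed between the controls. With GW9662, EPAS1 was the 1 pathway gene to pass in the fit of all 15 arrays, with array weights and in 1 of the fits without an array (range 0 to 1).

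Over the whole array the GW9662 calls numbered 44 (35 higher, 9 lower). They numbered 0 with the covariate, 0 with the replicate block, 26 with trended and robust variance, 67 with centring (61 higher, 6 lower), 76 without dim probe sets, 237 in the fit of all 15 arrays, and 62 with a second quantile normalisation (38 higher, 24 lower). Without single arrays they ran from 9 (without vehicle replicate 5) to 62, with 17, 20, 22 and 23 without GW9662 replicates 5, 4, 2 and 1 and 18 without vehicle replicate 2. The 10860 bovine against ovine calls (3740 higher, 7120 lower) numbered 1601 with the covariate, 5396 with the block, 6455 with centring (3740 higher, 2715 lower), 6586 without dim probe sets and 6796 with the second normalisation (3224 higher, 3572 lower). The causes were not tested. The values showed no sign of pairing by replicate number, which does not settle whether the arrays were paired by design. Correlations of same-numbered deviations ran from -0.194 to 0.172, and 0 of 5 pairs in either comparison were each other's best match. With the block, the dimmer probe set of KDR lost its call between the controls (adjusted p = 0.0839), as did FLT1 (0.175), and no other called member did.

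Signs turned for small differences. With GW9662 and the covariate, values were 0.19 for VEGFA, -0.066 for NRP1, 0.035 for dimmer NRP2, 0.078 for FLT1 (Bt.13148.1.A1_at), 0.0016 for FLT4 (Bt.16013.1.S1_at), -0.0059 for EGLN3, 0.016 for SEMA3B and 0.056 for PLXNA4. With weights VEGFA was 0.022. With centring, values were 0.0061 for VEGFA, 0.023 for VEGFB, 0.0088 for dimmer KDR, 0.026 for FLT1 (Bt.13148.1.S1_at), 0.035 and 0.037 for FLT4, 0.0017 for dimmer NRP2, 0.0023 for PRKCB, 0.0079 for SEMA3B and 0.024 for PTGS2. With the second normalisation they were 0.0018 for FLT1 (Bt.13148.1.S1_at), 0.0062 and 0.0064 for FLT4 and 0.0091 for PTGS2. Leaving out single arrays gave -0.13 to 0.085 for VEGFA, -0.012 to 0.013 for dimmer VEGFA and -0.093 to 0.027 for VEGFB.

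Between the controls the covariate gave 0.0044 for dimmer VEGFA, 0.20 for FLT1 (Bt.13148.1.A1_at), 0.0042 for FLT4 (Bt.16013.1.S1_at), -0.057 for NRP2 and 0.083 for dimmer NRP2. Centring gave 0.032 for dimmer VEGFA, 0.0060 for FLT1 (Bt.13148.1.S1_at), and 0.015 and 0.020 for FLT4. The second normalisation gave 0.031 for dimmer VEGFA, 0.0021 and 0.0042 for FLT4 and -0.070 for NRP2, and weights gave 0.0078 for dimmer VEGFA. Leaving out single arrays gave -0.019 to 0.0079 for dimmer VEGFA and -0.062 to 0.040 for NRP2. FLT1 (Bt.13148.1.S1_at) kept its call in 5 of 17 alternatives. The number of arrays limits precision, and dim probe sets carry no bound on signal over background.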
